A study of Arabidopsis thaliana with 4 samples.

Results

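The chlororespiratory reduction (CRR) genes are nuclear genes of Arabidopsis thaliana named for mutants that lack activity of the plastid NAD(P)H dehydrogenase-like (NDH) complex. The 5 genes described here are CRR21, CRR22, CRR28, CRR41 and CRR42, out of 13513 probe sets paired with a single gene and 22746 probe sets in all. They were chosen by symbol, as every single-gene probe set annotated CRR followed by a number, and each has 1 probe set. The family was picked out for description with the difference between T24 and T0 on these same arrays already known, so that difference is given for its members as a description and nothing is supported with it. The lists of other genes below were also made with earlier results of these data known, so their calls are read the same way.

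The samples were immature inflorescences, rich in unopened flower buds, taken from primary bolts when plants of ecotype Ler-0 (no mutation or transgene named) were 5 weeks old, with 10 inflorescences pooled for each time point. T24 inflorescences were kept for 24 h at 21 °C in darkness on wet paper inside a black plastic box (2 arrays). T0 inflorescences were frozen at harvest, 11 h into a day of 16 h light (2 arrays). Both groups had been detached from the plant, and darkness, time since cutting and the box cannot be told apart in the comparison. The titles number the 2 arrays of each group as biological replicates, but no text says whether each had its own pool, so the spread measured may be partly technical.

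The NDH complex sits in the thylakoid membrane, takes electrons from ferredoxin and passes them to plastoquinone, in cyclic electron flow around photosystem I and in chlororespiration, the reduction and oxidation of plastoquinone in darkness. Some of its subunits are encoded by the plastid ndh genes and others by the nucleus. The plastid ndh transcripts need single bases changed from C to U, at sites recognised by pentatricopeptide repeat (PPR) proteins, and the subunits need dedicated assembly factors. CRR21, CRR22 and CRR28 are PPR proteins of editing, and CRR41 and CRR42 are stromal factors needed to assemble the arm of the complex that faces the stroma. Transcript levels on an array say nothing about how far a transcript was edited.

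Values are RMA signals on the log2 scale, where 1 unit is a doubling, and changes are T24 minus T0 ± the standard error (SE) of a limma fit across all probe sets. A probe set was called at a Benjamini-Hochberg adjusted p under 0.05 over all 22746, and "rose" and "fell" are used for called genes alone. Array medians were 6.09 and 6.08 at T24, against 6.19 and 6.29 at T0. In all, 35.5% of probe sets had a mean under 5 over the 4 arrays, a range near the background in which differences are compressed. Of the 8 listed bud and meristem genes, 4 were measured, of which limma called 0. Before adjustment, 0 of them had a limma p under 0.05, against 6907 of all 22746 probe sets. The ovule and anther gene SPL and the carpel gene SPT had means of 5.77 and 7.71, while the meristem genes UFO (4.12) and CLV3 (3.56) were near the background on every array. SPL stood at -0.97 ± 0.45 and SPT at 0.84 ± 0.50, with UFO at -0.06 ± 0.19 and CLV3 at 0.06 ± 0.18. The absence of calls therefore does not show that these genes were steady.

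All 5 CRR genes were lower on both T24 arrays than on either T0 array, and 2 of them fell, CRR21 and CRR28. Over the whole table, 13.2% of probe sets were called, 6.84% as lower at T24. T24 and T0 arrays were fully separated for 57.4% of probe sets, and 30.0% were lower at T24 without overlap. The median change was -1.28 for the 5 genes and -0.0048 for all probe sets, of which 50.6% had a change below 0. In pooled tissue, fewer cells that express a gene and less of its RNA per cell cannot be told apart. Leaving out T24 replicate 1, T24 replicate 2, T0 replicate 1 or T0 replicate 2 gave 0 calls in limma, for the 5 genes, the listed genes and the whole table alike, with 3, 3, 4 and 4 of the 5 and 5038, 4888, 5942 and 5844 of the 22746 probe sets at an unadjusted p under 0.05. Nothing is read from the members' count.

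**Figure D1:**
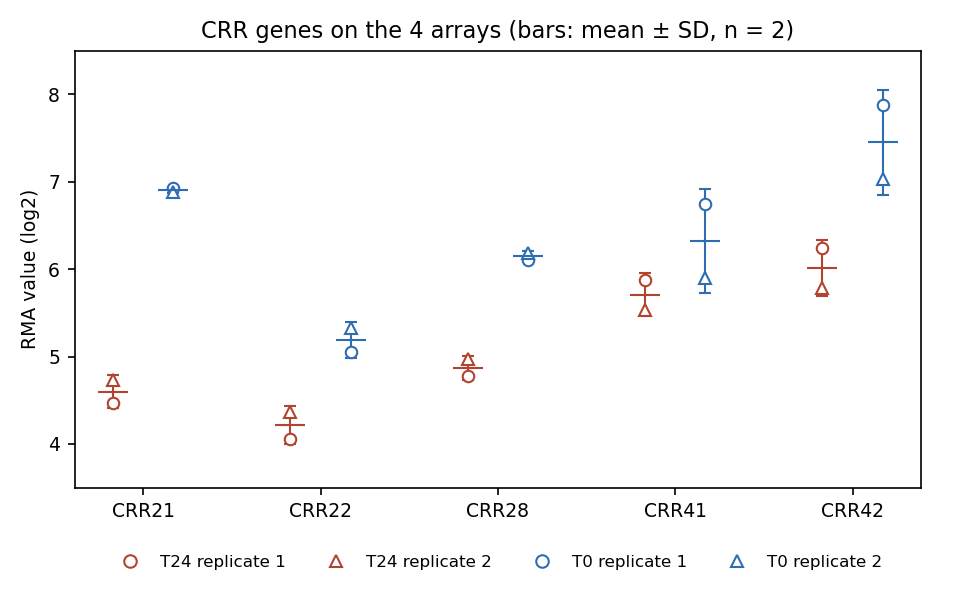
RMA values (log2) of the 5 CRR genes on each array, with T24 to the left of T0 for each gene and bars for the mean ± SD of 2 arrays. The T24 arrays lie below the T0 arrays for every gene, by a gap of 2.14 for CRR21 and of 0.03 for CRR41.

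CRR21, a PPR protein needed for editing of the plastid transcript ndhD, showed the largest difference of the 5. It had values of 4.46 and 4.74 at T24, against 6.93 and 6.88 at T0. Both T24 arrays were below 5 and both T0 arrays close to 7. CRR21 fell by 2.30 ± 0.20, which is 4.93-fold lower, and 2.48% of all probe sets had a lower change. Since its T24 signal is near the background, the size of this fall is approximate.

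CRR28, a PPR protein of the DYW class that takes part in editing of ndhB and ndhD, had values of 4.78 and 4.97 at T24, against 6.11 and 6.19 at T0. The groups were far apart relative to the replicates, which differed by 0.19 at T24 and 0.08 at T0. CRR28 fell by 1.28 ± 0.19, or 2.42-fold lower, and its T24 signal too lay just under 5. This call was lost when the variance was modelled with an intensity trend.

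CRR22, also of the DYW class, takes part in editing of ndhB, ndhD and rpoB. It had values of 4.06 and 4.37 at T24, against 5.05 and 5.33 at T0. All 4 values were low, and it was the 1 gene of the 5 with a mean under 5 over the arrays (4.70). Its change was -0.98 ± 0.23 and it was not called. Replicate 1 was lower than replicate 2 by 0.31 at T24 and by 0.29 at T0.

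The assembly factor genes varied more between replicates than the editing genes. CRR42 had values of 6.24 and 5.78 at T24, against 7.88 and 7.03 at T0. The groups did not overlap, but the T0 arrays differed by 0.85. Its change was -1.44 ± 0.38, and it was not called.

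CRR41 had values of 5.88 and 5.54 at T24, against 6.75 and 5.90 at T0. The higher T24 array and the lower T0 array were 0.03 apart, so the groups hardly separated. Its change of -0.62 ± 0.36, the smallest of the 5, was not called, and without T0 replicate 1 it was -0.20. Like CRR42, it was higher in replicate 1 than in replicate 2 in both groups, by 0.34 at T24 and 0.84 at T0. The replicates of the 3 editing genes differed by 0.05 to 0.31 in size.

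The genes whose values ran most like those of each member were sought among 1575 other single-gene probe sets with a symbol, as the smallest Euclidean distance over the 4 arrays after each gene was centred on its own mean. For CRR21 they were CHL, the chloroplastic lipocalin (distance 0.18, change -2.37 ± 0.19), and TAAC, the thylakoid ATP/ADP carrier (0.25, -2.21 ± 0.18). For CRR22 they were PyrD, a pyrimidine deaminase (0.03, -0.996 ± 0.23), and THO5 of the mRNA export complex THO (0.05, -0.98 ± 0.23). For CRR28 they were AT-HF, an enzyme of histidine synthesis (0.09, -1.29 ± 0.18), and PIR121 of the actin-regulating SCAR complex (0.11, -1.36 ± 0.19). As follows from choosing by distance, the genes closest to CRR41 and CRR42 were, like them, higher in replicate 1 than in replicate 2 in both groups. For CRR41 these were GER2, an enzyme gene of GDP-fucose synthesis (0.13, -0.60 ± 0.31), and the glycosyltransferase gene GT72B1 (0.15, -0.75 ± 0.35), and for CRR42 they were the glutathione transferase gene GSTU26 (0.15, -1.45 ± 0.33) and the glycosyltransferase gene UGT78D3 (0.25, -1.62 ± 0.45). With 4 arrays, such likeness describes these arrays alone.

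A further 3 measured genes were first described as CRR loci and now carry other symbols. Of these, 1 fell, 2 did not pass and 0 rose, where 6.84% of all probe sets were called lower. The median change of the 3 was -0.80. Cpn60beta4, known as CRR27, is a chaperonin subunit needed to fold the plastid-encoded subunit NdhH. It had values of 4.93 and 5.58 at T24, against 8.13 and 8.76 at T0, a fall of 3.19 ± 0.36 (limma adjusted p = 0.0205). NdhL, once CRR23, a membrane subunit of the complex, had values of 8.13 and 7.76 at T24, against 9.31 and 8.18 at T0, and its change of -0.80 ± 0.45 was not called (adjusted p = 0.338). It was -0.24 without T0 replicate 1 and -1.37 without T0 replicate 2. NdhS, once CRR31, forms the site that binds ferredoxin, and it was the exception in direction. It had values of 10.79 and 10.71 at T24, against 9.80 and 8.99 at T0. Its change of 1.35 ± 0.33 did not pass (adjusted p = 0.0779). Both T24 arrays lay above both T0 arrays, where 57.4% of all probe sets had groups without overlap. CRR1, CRR2, CRR3, CRR4, CRR6 and CRR7 were not paired with a single-gene probe set in the annotation used and are not analysed here.

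Of 20 other listed nuclear genes for NDH subunits and assembly, 3 were measured by name, and 2 fell, 1 did not pass and 0 rose, where 6.84% of all probe sets were called lower and 6.39% higher. Their median change was -2.32. NdhN, a subunit of the stromal arm, had values of 5.88 and 5.57 at T24, against 9.34 and 8.16 at T0. It fell by 3.02 ± 0.46 (adjusted p = 0.0318), and every T24 value was at least 2.28 below every T0 value. AT2G04039 fell by 2.32 ± 0.28 (adjusted p = 0.0224), with values of 4.77 and 5.18 at T24, against 7.53 and 7.05 at T0. AT5G52780 stood at -0.97 ± 0.41 and was not called (adjusted p = 0.221).

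Of 23 listed nuclear factors of plastid RNA editing and processing outside the CRR family, 9 were measured. There were 1 fall, 0 rises and 8 not passing, where 6.84% of all probe sets were called lower. OTP81, another plastid editing factor of the PPR family, fell by 1.96 ± 0.25 (adjusted p = 0.0248), with values of 4.92 and 4.50 at T24, against 6.51 and 6.82 at T0. The list's median change was -0.54, and its 9 changes ran from -1.96 to 0.08. OTP84, which takes part in editing of ndhB and ndhF, stood at -1.16 ± 0.29 (adjusted p = 0.0776) and LPA66, an editing factor of psbF, at -0.997 ± 0.25 (adjusted p = 0.0814). In 6 of the 9 the mean over the arrays was under 5, so the list holds few genes with a clear signal.

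**Figure D2:**
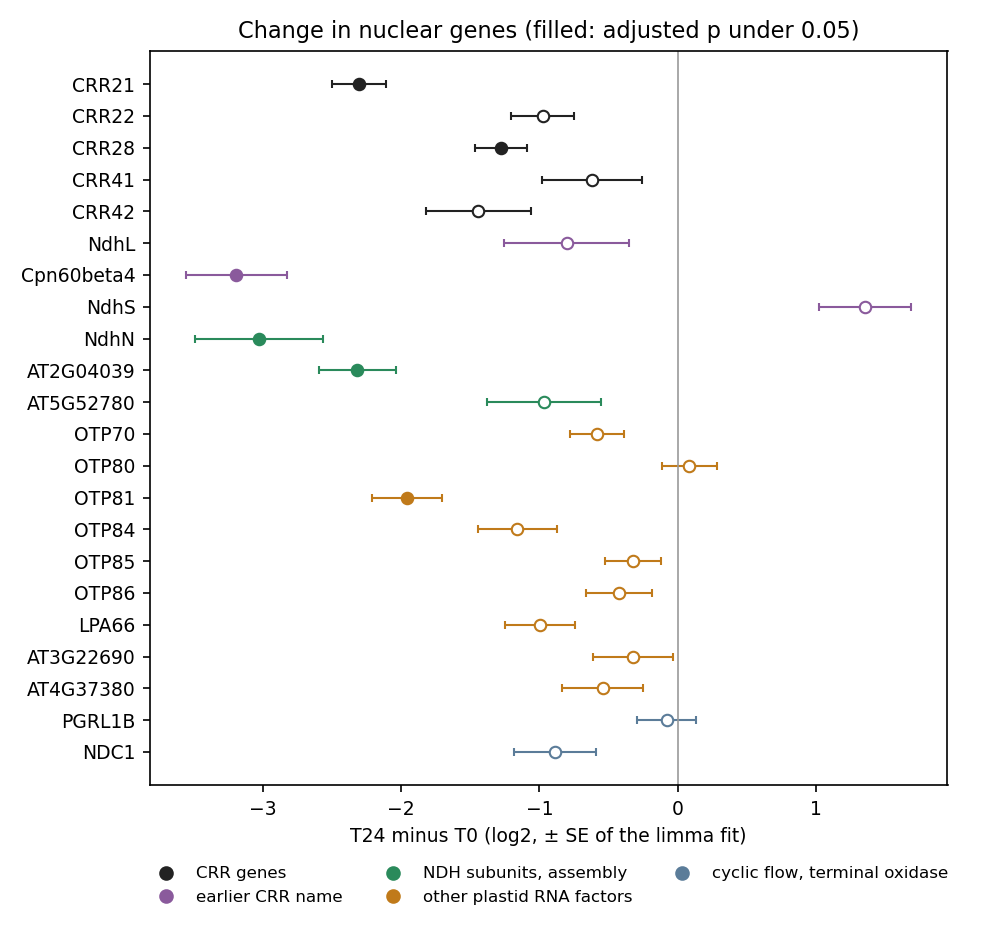
Difference T24 minus T0 (log2, ± SE) for the 5 CRR genes and the measured nuclear genes of the listed groups, with filled points for genes called at an adjusted p under 0.05. Most points lie left of 0, CRR21 at -2.30 among the CRR genes and Cpn60beta4 at -3.19 farthest of all, while NdhS lies at 1.35.

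The other routes into and out of the plastoquinone pool were represented by 2 of 9 listed genes, of which limma called 0. Before adjustment, 1 had a limma p under 0.05, as had 6907 of all 22746 probe sets. NDC1, a type II NAD(P)H dehydrogenase of plastoglobules, stood at -0.89 ± 0.30 (adjusted p = 0.142). PGRL1B, of the antimycin-sensitive cyclic route, stood at -0.08 ± 0.21 (adjusted p = 0.877), with a 95% interval of -0.67 to 0.51, and its sign turned when the arrays were centred on their medians.

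Of the 12 listed plastid ndh genes (a pair of them copies of ndhB), 10 were measured by name, 0 were called in limma and 1, ndhD, had an unadjusted p under 0.05. Of all 22746 probe sets, 6907 were under that level. Changes ran from -0.28 for ndhI to 1.69 ± 1.19 for ndhE, with a median of 0.78, and 2 of the 10, ndhC and ndhI, were below 0 (ndhC at -0.06, which turned to 0.10 with median centring). The change of ndhE lay between 0.39 without T24 replicate 2 and 2.98 without T24 replicate 1. For ndhD, the transcript edited with the help of CRR21, CRR22 and CRR28, the values were 10.05 and 10.66 at T24, against 9.56 and 9.49 at T0. It was the only ndh gene whose groups did not overlap, where 57.4% of all probe sets had no overlap. The ndhD change was 0.83 ± 0.28 (adjusted p = 0.139). The rpoB transcript, another that CRR22 acts on, had values of 3.71 and 6.30 at T24, against 4.00 and 4.56 at T0, a change of 0.73 ± 0.95 (adjusted p = 0.708). The gene ndhB, present in a pair of copies in the plastid genome, was not paired with a single-gene probe set and is not analysed here.

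For 9 of the 10 ndh genes the replicates of each group differed by more than the group means did. In T24, replicate 1 was lower than replicate 2 for all 10 ndh genes, by 0.61 for ndhD up to 4.50 for ndhF. In T0 it was lower for 9 of the 10, ndhD being the exception at 0.07, and by up to 3.51 for ndhG. Over the 69 plastid-encoded genes the median difference (replicate 1 minus replicate 2) was -1.72 at T24 and -1.01 at T0. For ndhF the values were 3.44 and 7.94 at T24, against 3.19 and 6.10 at T0, a change of 1.04 ± 1.89. The other measured ndh genes had changes of 0.17 ± 0.37 (ndhA), 1.13 ± 1.96 (ndhG), 0.14 ± 0.87 (ndhH), 0.73 ± 0.56 (ndhJ) and 1.01 ± 1.40 (ndhK). With errors of this size, such as a 95% interval of -4.30 to 6.55 for ndhG, changes of several-fold in either direction were not detectable for ndhF, ndhG and ndhK.

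**Figure D3:**
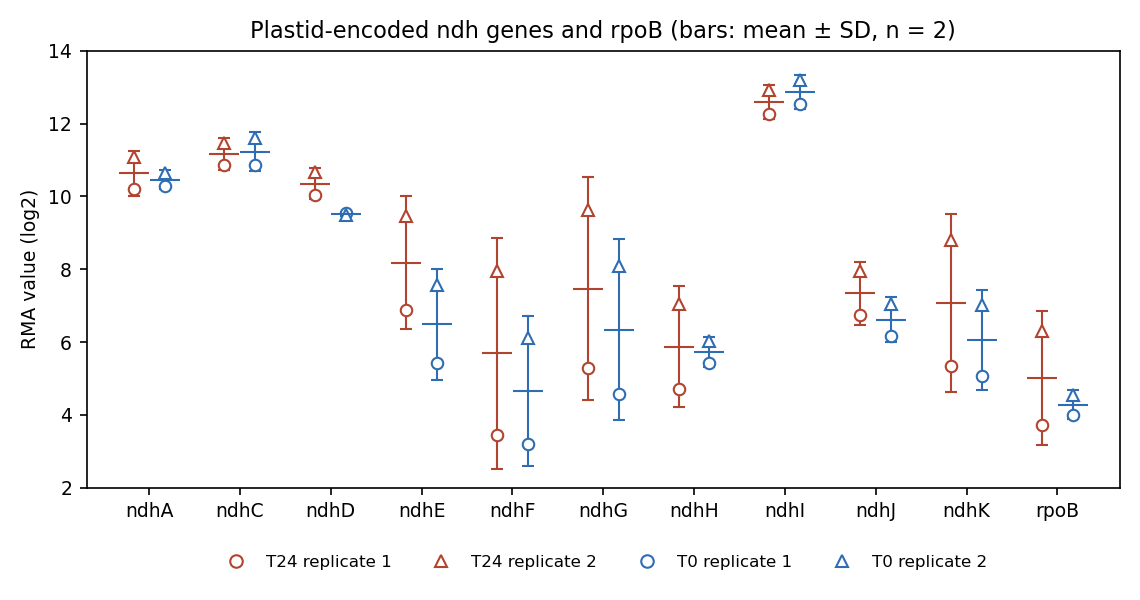
RMA values (log2) of the 10 measured plastid-encoded ndh genes and of rpoB on each array, with T24 to the left of T0 and bars for the mean ± SD of 2 arrays. Replicate 2 (triangles) lies above replicate 1 (circles) in nearly every group, by 4.50 for ndhF at T24. Only ndhD has both T24 values above both T0 values, where 57.4% of all probe sets have no overlap in either direction.

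Markers of green tissue were lower in part at T24 as well. Of 16 listed, 7 were measured. Of these 7, 4 fell, 1 rose and 2 did not pass, where 6.84% of all probe sets were called lower and 6.39% higher. The median change of the 7 was -1.56. The sum of their log2 values lay between 68.50 and 70.33 on the T24 arrays, against 76.64 to 79.91 on the T0 arrays. RCA, the activase of Rubisco, fell by 1.56 ± 0.18 and SBPASE of the Calvin cycle fell by 2.68 ± 0.22. AT1G56190 fell by 2.36 ± 0.21 and the antenna gene LHCB4.3 fell by 3.56 ± 0.29. The antenna gene LHCB4.2 rose by 1.61 ± 0.28. PRK (-0.92 ± 0.40) and the antenna gene LHCB4.1 (0.61 ± 0.32) were not called. Adjusted p for the 5 called genes ran from 0.0157 to 0.039 in limma. The marker lists were made with earlier results of these data known, so these calls are a description alone. Of 6 listed tapetum and pollen markers, 5 were measured, and 1 fell, 1 rose and 3 did not pass. SHT, of the tapetum, fell by 6.19 ± 0.39, and AT59, a pollen pectate lyase, rose by 4.202 ± 0.23. Not called were AMS (-0.24 ± 0.29), AT5G07230 (-1.95 ± 1.23) and SWEET8 (0.93 ± 0.30, without overlap, as in 57.4% of all probe sets). For AT5G07230, replicate 1 was above replicate 2 by 2.85 at T24 and 2.00 at T0. The median change of the 5 was -0.24, and their sum lay between 37.62 and 41.63 on the T24 arrays, against 41.25 to 44.50 on the T0 arrays. None of the markers is at 0, as RMA gives no zero values, and the part of green cells or of anther stage in the difference of the CRR genes was not tested.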

How the data were processed

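The data were 1 table of log2 values, which the authors deposited for 22746 probe sets on 4 Affymetrix arrays. The submitters' processing notes give RMA as the tool, with no version. That the base is 2 was inferred from what RMA usually returns and from values of 2.71 to 14.44. The values were used without further normalization. Of the probe sets, 13513 had 1 gene in the platform annotation, 503 had several and 8730 are unnamed here, and 13436 of the 13513 matched RefSeq's gene table (assembly TAIR10.1) by gene identifier. Neither coordinates nor sequences were used.

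The difference T24 minus T0 was fitted in R 4.3.3 with limma 3.58.1 over the whole table, with lmFit and eBayes, no covariate, no filter and Benjamini-Hochberg adjustment. The fit was also run on simulated data with independent noise, as a check of the code alone. Replicate differences on the real arrays were correlated between the groups, which that simulation lacked. Listed genes were matched by locus code, plastid genes by symbol. Members and lists were chosen with earlier results of these data known. Named genes were all members, the measured ndh genes and rpoB, and listed genes that passed, or else the one with the highest mean. The 2 genes most like each member, among those with a symbol other than a locus code, were named too. Other genes in the text were named after their values were seen. Alternatives were a block for the replicate number, a trended and a robust variance model, quantile scaling, median centring, a mean of at least 5, and leaving out each array. Precision is limited by having 2 arrays in each group.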

Additional observations from a re-analysis of the deposited data

How the results depend on the processing

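Of the 22746 probe sets, 3010 passed; 2764 passed with the trended variance, 2779 with the robust one, 3151 with quantile scaling, 3105 with median centring (58.2% of them higher at T24, against 48.3% of the 3010) and 3240 of 14678 with a mean of at least 5. With a replicate block, 6528 passed, 3009 of them among the 3010. Replicate differences (replicate 1 minus 2) at T24 and T0 correlated at 0.635 over probe sets, but the labels name no shared batch and there are 2 pairs, so the numbers were not taken to pair the samples. Of the 5 CRR genes, 4 were called under the block (CRR22 and CRR42 were added), 1 with the trend (CRR28 lost its call) and 2 in the other settings that kept all arrays. Of the 28 measured pathway genes, 4 passed in every setting without the block that kept all arrays, against 9 under the block (NdhS, AT5G52780, ndhE, OTP84 and NDC1 were added). CRR22 drops out with a mean of at least 5. Leaving out 1 array gave 0 calls each time in these 3 counts; the lone array left in 1 group is then taken to vary as the other group's arrays do, and the smallest adjusted p in limma ran from 0.054 to 0.0936. The CRR changes kept their direction throughout; leaving out an array could not have turned them, since the groups do not overlap, and gave -2.44 to -2.17 for CRR21 and -1.04 to -0.20 for CRR41.

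Median centring moved the median change by 0.16 and turned ndhC to 0.10, PGRL1B to 0.076 and UFO to 0.10. Leaving out 1 array turned the direction of some genes that were not called, with ranges of -0.26 to 0.61 for ndhA, -0.44 to 0.32 for ndhC, -1.21 to 3.29 for ndhF, -1.04 to 3.29 for ndhG, -1.03 to 1.32 for ndhH, -0.61 to 0.048 for ndhI, -0.72 to 2.74 for ndhK, -0.57 to 2.02 for rpoB, -0.030 to 0.20 for OTP80, -0.25 to 0.093 for PGRL1B, -0.17 to 0.055 for UFO, -0.015 to 0.13 for CLV3 and -0.48 to 0.005 for AMS. In all of these the T24 and T0 arrays overlapped, so the sign could turn. Why their replicates differed was not tested. Other uncalled changes named above kept their direction but moved by over 1.5 times, with ranges of -1.37 to -0.24 for NdhL, -1.35 to -0.58 for AT5G52780, 0.53 to 1.14 for ndhD, 0.39 to 2.98 for ndhE, 0.12 to 1.34 for ndhJ, -1.19 to -0.58 for NDC1, -0.95 to -0.25 for GER2 and -1.14 to -0.36 for GT72B1. Uncalled markers moved as much, with ranges of -3.37 to -0.52 for AT5G07230, 0.28 to 1.405 for SPT and -1.55 to -0.39 for SPL. The ranges were 0.25 to 0.97 for LHCB4.1 and -1.33 to -0.52 for PRK. With 2 arrays per group and RMA values without detection calls, small changes near the background are beyond reach.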
